A study of Sorghum bicolor with 12 samples.

Results

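The middle stem internode of water-limited sweet sorghum was compared with the booting internode of the same hybrid, gene by gene. The water-limited group was Ds3, a booting-stage group of 2 libraries placed by the header of the deposited table under water-limiting conditions. It was set against the booting group, also 2 libraries, which carries no such code. The comparison covers every locus of the water-limiting part of the table that carries a gene ID, which was 33391 of 34718 loci.

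Plants of both groups were Sorghum bicolor, hybrid CSH22SS, grown in an open field, and total RNA of the middle internode was sequenced in 12 libraries over the whole study. No label explains the code Ds or its number, how water was limited or for how long, and individual plants are not named. Both groups are the same hybrid and tissue. Each group has 1 deposited value per gene in FPKM, a fragment count corrected for transcript length and library size, which the authors made from its 2 libraries. No value below therefore has a replicate error, no difference was tested, and all differences are described by size. Read depth is unknown.

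The sweet sorghum stem is a sucrose store. Sucrose arrives in the phloem, is cleaved or resynthesised by sucrose synthases, invertases and sucrose-phosphate synthases, and is held in the vacuoles of parenchyma cells. The internode also builds thick walls of cellulose and lignin, and sorghum makes the cyanogenic glucoside dhurrin. In plants that lose water, proline synthesis and dehydrins, which protect proteins and membranes in drying cells, are classic responses.

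Gene loci were called higher or lower when the ratio of FPKM + 1, Ds3 over booting, was at least 4 in either direction and either group reached 10 FPKM. The ratio is also given as a difference of log2(FPKM + 1), Ds3 minus booting, which understates the change of low genes. Of 10276 gene loci with 10 FPKM or more in Ds3 or booting, 751 (7.31%) were higher in Ds3 and 642 (6.25%) were lower, together 13.6% of these loci. Another 23115 gene loci were under 10 FPKM in both groups, and 6684 of them were listed at 0 in both. The median log2 difference over the 10276 loci was -0.08, with 10th and 90th percentiles of -1.59 and 1.57. At any size, 4826 loci (47%) were above booting and 5450 (53%) below. In bulk tissue, fewer cells of a type and less RNA per cell cannot be told apart.

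**Figure D1:**
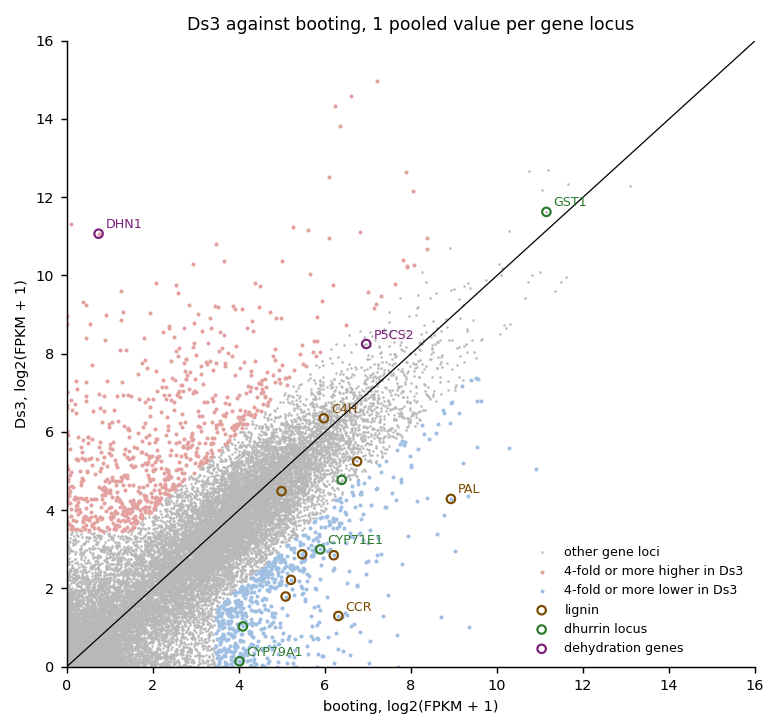
Each point is 1 gene locus, with log2(FPKM + 1) in Ds3 on the vertical axis and in booting on the horizontal axis, 1 pooled value per group. Red points are the 751 loci at least 4-fold higher in Ds3, blue points the 642 at least 4-fold lower, and open circles mark lignin, dhurrin and dehydration genes. Most lignin circles lie below the diagonal, and DHN1 lies far above it.

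The 2 directions differed in shape. The higher loci had a median log2 difference of 3.28, and 52 of the 10276 loci were 64-fold or more higher. The lower loci had a median of -2.79, and 11 were 64-fold or more lower. At a ratio of 2 the order turned, with 1787 loci higher and 2044 lower. FPKM over all loci summed to 647608 in Ds3 and 477138 in booting, so the shares that follow are of unlike totals. The higher loci held 32.4% of all FPKM in Ds3 and 1.73% in booting. The lower loci held 0.753% of FPKM in Ds3 and 9.07% in booting. The 4 most abundant loci of each group held 14.2% of FPKM in Ds3 and 3.74% in booting.

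Among the 49 gene loci that reached 1000 FPKM or more in either group, 24 (49.0%) were higher in Ds3 and 2 (4.08%) lower. Among the 5731 loci whose higher value lay between 10 and 30 FPKM, 287 (5.01%) were higher and 366 (6.39%) lower. The level used here is that of the higher group, so a locus with a large increase moves itself into a higher bin.

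**Figure D2:**
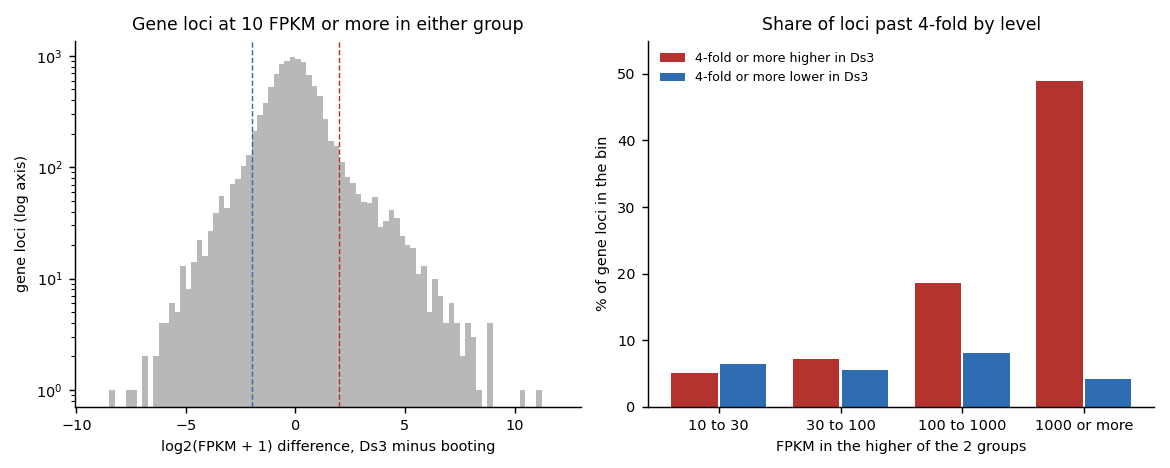
The left panel counts gene loci (log axis) by their log2(FPKM + 1) difference, Ds3 minus booting, with dashed lines at the 4-fold bounds. The right panel gives, for 4 classes of FPKM in the higher group, the percentage of loci 4-fold or more higher (red) or lower (blue) in Ds3. The red bars run from 5.01% in the lowest class to 49.0% in the highest, and the blue bars stay between 4.08% and 7.99%.

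The booting libraries were also quantified in the developmental part of the table, which gives a check on processing but not on variation between plants. Over 15210 gene loci averaging 1 FPKM or more, the 2 booting values differed with an SD of 0.29 in log2, and the water-limiting part read lower by a median of 0.20. Among the loci higher in Ds3, 715 had both booting values, and these were 2-fold or more apart at 35. Among the lower loci it was 15 of 583. The 4-fold bound is log2 2.

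The genes named below come from lists of 46 gene IDs that had been chosen with earlier results of these data known. Their names follow published sorghum gene studies and were recalled, not looked up, since the deposited table pairs no ID with a name. Of the 41 listed IDs at 10 FPKM or more, 4 were at least 4-fold higher and 15 at least 4-fold lower in Ds3, beside 7.31% and 6.25% of all gene loci.

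Most listed lignin genes were lower in Ds3. Of the 10 listed enzymes, 9 were below booting, beside 53% of all loci, and 7 were lower by 4-fold or more, beside 6.25%. Their median log2 difference was -2.81, against -0.08 over all loci. PAL (Sobic.004G220300), which opens the phenylpropanoid pathway by deaminating phenylalanine, read 18.5 FPKM in Ds3 and 486 in booting. The next enzyme, the hydroxylase C4H (Sobic.002G126600), was the exception, with 80.5 FPKM in Ds3 and 61.7 in booting. The log2 difference of C4H was only 0.38, and without a replicate error its direction is uncertain. Each step is given by 1 listed ID, and other members of these gene families were not examined. 4CL (Sobic.004G062500), which activates the acids to CoA thioesters, read 6.19 FPKM in Ds3 and 72.7 in booting.

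The shikimate-ester steps, which add the second oxygen of the ring, were uneven. C3H (Sobic.009G181800) read 2.46 FPKM in Ds3 and 32.9 in booting, a log2 difference of -3.29. HCT (Sobic.004G212300), its partner transferase, read 21.4 FPKM in Ds3 and 30.7 in booting, but the same booting libraries read 63.2 in the developmental part. The 2 booting values of HCT lie about as far apart as 2-fold, so the size of its difference is uncertain. CCoAOMT (Sobic.010G052200), a methyltransferase, read 36.9 FPKM in Ds3 and 106 in booting, short of 4-fold.

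The monolignol branch held the largest difference of the list. CCR (Sobic.007G141200), which reduces the CoA esters to aldehydes, read 1.45 FPKM in Ds3 and 78.3 in booting, a log2 difference of -5.02. F5H (Sobic.001G196300), which commits precursors to syringyl lignin, read 3.65 FPKM in Ds3 and 36.0 in booting. CAD (Sobic.004G071000) reduces the aldehydes to alcohols in the last step, and its loss gives sorghum a brown midrib. CAD read 6.31 FPKM in Ds3 and 43.3 in booting, a log2 difference of -2.60.

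The other water-limited groups give these values a range. PAL read 275 FPKM in Ds1 and 48.6 in Ds2, so Ds3 was the lowest of the 3 groups. CAD read 14.1 FPKM in Ds1 and 8.42 in Ds2, again above Ds3. F5H did not follow, at 0.875 FPKM in Ds1 and 1.56 in Ds2, both below Ds3. In all, 8 of 10 lignin genes read lower in Ds3 than in Ds1, beside 49.7% of the 10276 loci, and 8 of 10 lower than in Ds2, beside 44.6%. Ds3 minus Ds1 had a median log2 difference of -0.82 over the 10 genes, and Ds3 minus Ds2 had -0.60. In the developmental part every lignin gene given here also read lower in maturity than in booting, without water limitation in the labels. PAL read 561 FPKM there in booting and 169 in maturity, and CCR 90.5 and 10.1. F5H read 45.2 and 7.50 FPKM, and C4H 71.5 and 55.9. The milky stage was uneven. PAL read 236 FPKM and CCR 34.2 in milky, both below booting. C3H read 35.7 FPKM in milky, close to its 38.1 in booting there. CCoAOMT read 278 FPKM in milky, above its 127 in booting there, and 96.1 in maturity.

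The 3 listed cellulose synthases were under 1 FPKM in Ds3. CESA proteins form the complex that spins the cellulose of plant cell walls. Sobic.003G296400 read 0.202 FPKM in Ds3 and 34.9 in booting. Sobic.002G205500 read 0.334 FPKM in Ds3 and 22.2 in booting, and Sobic.001G224300 read 0.337 and 16.9. These levels were a small fraction of those in booting, but the genes were also low in the later stages of the developmental part, without water limitation in their labels. There Sobic.001G224300 read 0.138 FPKM in milky and 0.307 in maturity. Sobic.002G205500 stood at 0.248 FPKM in milky and 0.517 in maturity. Last, Sobic.003G296400 had 3.73 in milky and 1.95 in maturity. CSLF6 (Sobic.007G050600), which makes the mixed-linkage glucan of grass walls, read 8.75 FPKM in Ds3 and 54.7 in booting. The 4 genes had a median log2 difference of -3.93, and all 4 were lower by 4-fold or more, beside 6.25% of all loci. Each read lower in Ds3 than in Ds1 and in Ds2, beside 49.7% and 44.6% of all loci. CSLF6 differed from the others in the developmental part, with 93.1 FPKM in milky and 65.4 in maturity.

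Dhurrin synthesis genes were lower as a block, while their neighbour GST1 had no secure direction. The 5 genes lie side by side in the ID order and form the dhurrin cluster of sorghum. CYP79A1 (Sobic.001G012300), which starts the pathway from tyrosine, read 0.0971 FPKM in Ds3 and 15.1 in booting. CYP71E1 (Sobic.001G012200), the second P450, read 6.98 FPKM in Ds3 and 58.3 in booting. UGT85B1 (Sobic.001G012400), which adds the glucose that stabilises the product, read 1.04 FPKM in Ds3 and 16.02 in booting. These 3 biosynthetic genes were each lower by 4-fold or more, with log2 differences between -3.88 and -2.89, beside 6.25% of all loci. With a pseudocount of 5 CYP79A1 had -1.98 and UGT85B1 -1.80, both short of 4-fold. CYP79A1 was also low in the later stages of the developmental part, without water limitation in their labels. It read 17.5 FPKM there in booting, 0.481 in milky and 1.41 in maturity. UGT85B1 read 18.5, 5.92 and 15.7 FPKM in the same order, and CYP71E1 went the other way with 67.4, 113 and 99.6.

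The dhurrin transporter MATE2 (Sobic.001G012600) read 26.3 FPKM in Ds3 and 82.7 in booting, short of 4-fold. The glutathione transferase GST1 (Sobic.001G012500) was the most abundant of the cluster, at 3157 FPKM in Ds3 and 2266 in booting. Its log2 difference of 0.48 turned to -0.83 under quantile normalization, so it has no secure direction. Against Ds1 all 5 genes of the cluster read lower in Ds3, and against Ds2 4 of 5 did, beside 49.7% and 44.6% of all loci. CYP79A1 was the exception, with 0.0112 FPKM in Ds2.

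Sugar-cleaving genes differed from one family member to the next. The cell-wall invertase Sobic.004G166700, which splits sucrose outside the cell, read 131 FPKM in Ds3 and 5.09 in booting, a log2 difference of 4.44. It read 5.62 FPKM in Ds1 and 45.2 in Ds2, so Ds3 was the highest of all 4 groups. The vacuolar invertase Sobic.004G004800 read 4.19 FPKM in Ds3 and 0.277 in booting, and it stayed under the 10 FPKM minimum.

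Of 4 sucrose synthases, which cleave sucrose reversibly, 3 read above booting and 1 below, beside 47% and 53% of all loci. None differed by 4-fold, beside 13.6% of all loci past 4-fold in either direction. Sobic.010G072300, the most abundant, read 364 FPKM in Ds3 and 178 in booting, but 1098 in Ds1 and 447 in Ds2. Sobic.001G378300 read 104 FPKM in Ds3 and 39.4 in booting, and 85.0 in Ds1 and 81.5 in Ds2. Sobic.001G344500 went the other way, at 19.7 FPKM in Ds3 and 74.5 in booting. In booting Sobic.001G344500 stood above Sobic.001G378300, and in Ds3 it stood below. Sobic.004G357600 was low throughout, at 2.33 FPKM in Ds3 and 0.378 in booting.

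Sucrose-phosphate synthases, which make sucrose phosphate from UDP-glucose and fructose phosphate, had 1 member with a large difference. Sobic.005G089600 read 25.2 FPKM in Ds3 and 0.953 in booting, a log2 difference of 3.74, with 4.52 FPKM in Ds1 and 23.3 in Ds2. The other members lay between -0.29 and 0.73 in log2 difference. Sobic.009G233200, the most abundant, read 78.2 FPKM in Ds3 and 59.0 in booting. Sobic.004G068400 read 24.66 FPKM in Ds3 and 30.3 in booting, the 1 member below booting. These values were close to booting in either direction. Sobic.003G403300 read 22.8 FPKM in Ds3 and 14.0 in booting. Sobic.010G205100 read 15.4 FPKM in Ds3 and 8.87 in booting. Of the 5 members 4 were above booting, beside 47% of all loci, and the median log2 difference of the 5 was 0.66.

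None of the 4 listed sugar transporters differed by 4-fold, beside 13.6% of all loci past 4-fold in either direction. TST (Sobic.004G099300), which loads sugar into the vacuole, read 73.1 FPKM in Ds3 and 164 in booting. SUT1 (Sobic.001G488700), a plasma membrane sucrose transporter of the phloem, read 92.4 FPKM in Ds3 and 170 in booting. SUT4 (Sobic.008G193300) read 62.4 FPKM in Ds3 and 40.8 in booting, and SUT2 (Sobic.004G353600) read 17.8 and 19.2. In the separately scaled developmental part the same booting libraries read 71.3 FPKM for SUT4 and 30.4 for SUT2, so the small differences of both are uncertain.

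**Figure D3:**
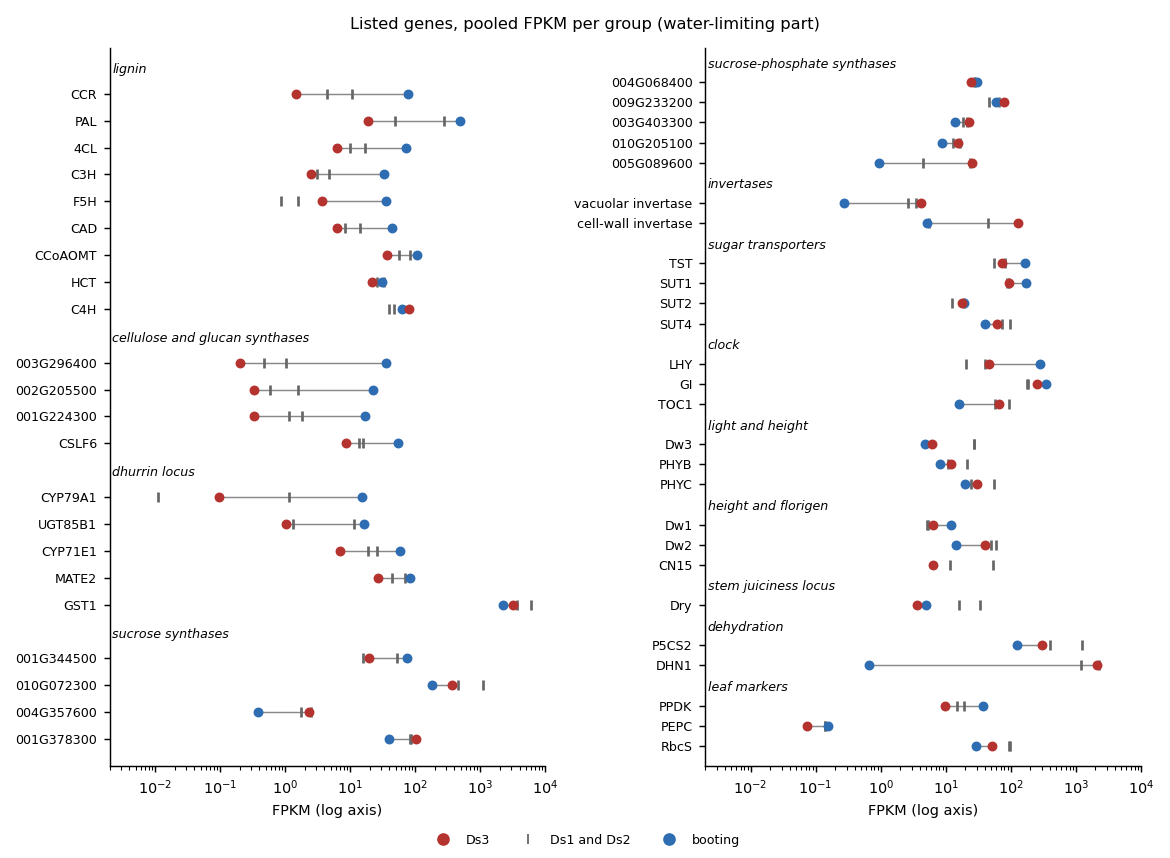
Pooled FPKM (log axis) of the listed genes in Ds3 (red), Ds1 and Ds2 (grey ticks) and booting (blue), grouped by list, with a line joining Ds3 and booting. Red lies left of blue for 8 of the 9 lignin genes shown and all 4 wall polysaccharide synthases, and right of blue for both invertases. CN15 has no blue point because it was listed at 0 in booting.

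Dehydration genes were far apart in size. DHN1 (Sobic.009G116700), a dehydrin, read 2143 FPKM in Ds3 and 0.664 in booting, the second-largest log2 difference of all loci at 10.33. It read 1197 FPKM in Ds1 and 2284 in Ds2. P5CS2 (Sobic.003G356000), which makes the first intermediate of proline, read 303 FPKM in Ds3 and 123 in booting, a log2 difference of 1.29. P5CS2 was higher in the other water-limited groups, with 1224 FPKM in Ds1 and 406 in Ds2. In the developmental part, without water limitation in the labels, P5CS2 read 143 FPKM in booting, 51.2 in milky and 273 in maturity. DHN1 read 0.767, 0.0883 and 0.886 FPKM there in the same order.

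Clock genes stood on both sides of booting. LHY (Sobic.007G047400), a morning gene of the plant clock, read 45.8 FPKM in Ds3 and 285 in booting, a log2 difference of -2.61. TOC1 (Sobic.004G216700), an evening gene that represses LHY, read 67.0 FPKM in Ds3 and 15.9 in booting, a log2 difference of 2.01. This just passed 4-fold, and it fell short at 1.79 with a pseudocount of 5, 1.99 under quantile normalization and 1.92 with equal totals. GI (Sobic.003G040900), which acts towards evening, read 253 FPKM in Ds3 and 352 in booting. LHY read 40.1 FPKM in Ds1 and 20.7 in Ds2, and TOC1 read 57.7 and 92.8. Milky, without water limitation in its label, had the same pattern in the developmental part. LHY read 92.0 FPKM in milky, 324 in booting and 339 in maturity there, and TOC1 read 63.4, 18.3 and 21.0. The labels give no hour of harvest, so the hour and the water-limited group cannot be told apart.

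Light and height genes differed little. The red-light receptor PHYB (Sobic.001G394400) read 12.2 FPKM in Ds3 and 8.29 in booting. PHYC (Sobic.001G087100), of the same receptor family, read 30.05 FPKM in Ds3 and 20.1 in booting. Dw3 (Sobic.007G163800), an auxin transporter whose loss shortens the stem, read 6.24 FPKM in Ds3 and 4.87 in booting. In Ds1 and Ds2 Dw3 read 27.2 and 27.6 FPKM, so Ds3 was the 1 water-limited group near booting. Dry (Sobic.006G147400), the NAC gene of the stem juiciness locus, had the same shape, with 3.57 FPKM in Ds3, 33.2 in Ds1, 15.8 in Ds2 and 4.89 in booting.

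A further 3 genes were added after their values had been seen. Dw2 (Sobic.006G067700), a kinase gene of stem height, read 40.3 FPKM in Ds3 and 14.4 in booting. Dw1 (Sobic.009G229800), a height gene of brassinosteroid signalling, read 6.28 FPKM in Ds3 and 12.2 in booting. The florigen gene CN15 (Sobic.010G045100) was listed at 0 in booting, in both parts of the table, and read 6.35 FPKM in Ds3, 53.1 in Ds1 and 11.8 in Ds2.

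Leaf photosynthesis genes, listed as markers of leaf tissue, stood on both sides of booting. The C4 carboxylase PEPC (Sobic.010G160700), a defining gene of the C4 leaf, read 0.0740 FPKM in Ds3 and 0.155 in booting. PPDK (Sobic.009G132900), which regenerates its substrate, read 9.85 FPKM in Ds3 and 37.0 in booting. The Rubisco small subunit (Sobic.005G042000) read 51.1 FPKM in Ds3 and 29.5 in booting. Of the 3 markers 1 was above and 2 below booting, beside 47% and 53% of all loci. None differed by 4-fold, beside 13.6% of all loci past 4-fold in either direction. The summed FPKM of the 3 markers was 61.1 in Ds3 and 66.6 in booting.

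The largest single differences fell on loci whose function is not annotated in the sources used here, which are given by ID alone. The 12 loci with the largest increase, leaving out loci listed at 0, include DHN1. They read between 334 and 32381 FPKM in Ds3 and between 0.00781 and 147 in booting. First was Sobic.009G119200, with 2530 FPKM in Ds3, 1060 in Ds1, 323 in Ds2 and 0.0730 in booting, a log2 difference of 11.20. It was also under 0.1 FPKM in milky and maturity, the other stages of the study. Sobic.007G109800 read 639 FPKM in Ds3 and 0.2999 in booting, and Sobic.003G172200 read 608 and 0.354.

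Among the 12, 3 loci were already at 74 FPKM or more in booting. Sobic.010G039150 read 32381 FPKM in Ds3, the highest value of that group, with 29013 in Ds1, 20313 in Ds2 and 147 in booting. Sobic.004G337132 read 24542 FPKM in Ds3 and 97.0 in booting. Sobic.001G038050 read 20677 FPKM in Ds3 and 74.5 in booting. The last 2 were higher in Ds1, at 65970 and 49021 FPKM. Sobic.001G202800, outside the 12 but among the 8 largest gains in FPKM, read 14373 FPKM in Ds3 and 81.0 in booting.

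The remaining loci among the 8 largest gains in FPKM were smaller. Sobic.003G397400 read 6363 FPKM in Ds3 and 236 in booting, and Sobic.002G075800 read 4582 and 264. Sobic.001G141300 read 6479 FPKM in Ds3 and 1703 in booting, just short of 4-fold at a ratio of 3.802, and its Ds1 value was 30465. Its log2 difference of 1.93 became 0.49 under quantile normalization. Sobic.004G198701 read 5892 FPKM in Ds3 and 66.9 in booting. The names Sobic.003G397400 and Sobic.004G198701 are each carried by more than 1 locus, so their reads may be split.

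The 12 loci with the largest decrease read between 0.0632 and 32.0 FPKM in Ds3 and between 72.4 and 1920 in booting. Sobic.002G322000 came first, with 1.02 FPKM in Ds3, 2.004 in Ds1, 0.848 in Ds2 and 651 in booting, a log2 difference of -8.33. In the developmental part it read 1559 FPKM in milky and 1038 in maturity. Sobic.007G057100 was the most abundant of them, at 32.0 FPKM in Ds3 and 1920 in booting. Sobic.002G072200 read 0.0632 FPKM in Ds3 and 128 in booting.

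Ds1 values of these 12 loci, which were chosen for their low Ds3 values, varied widely. Sobic.006G026400 read 1.41 FPKM in Ds3, 166 in Ds1, 13.2 in Ds2 and 413 in booting. Sobic.001G377300 read 0.324 FPKM in Ds3, 57.0 in Ds1, 2.58 in Ds2 and 84.0 in booting. Sobic.001G472000 read 0.830 FPKM in Ds3, 776 in Ds1, 34.97 in Ds2 and 112 in booting, so Ds1 lay above booting and Ds3 far below it. Sobic.001G394100 was the 1 locus of the 12 above its Ds1 value, with 0.568 FPKM in Ds3, 0.0805 in Ds1 and 130 in booting.

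**Figure D4:**
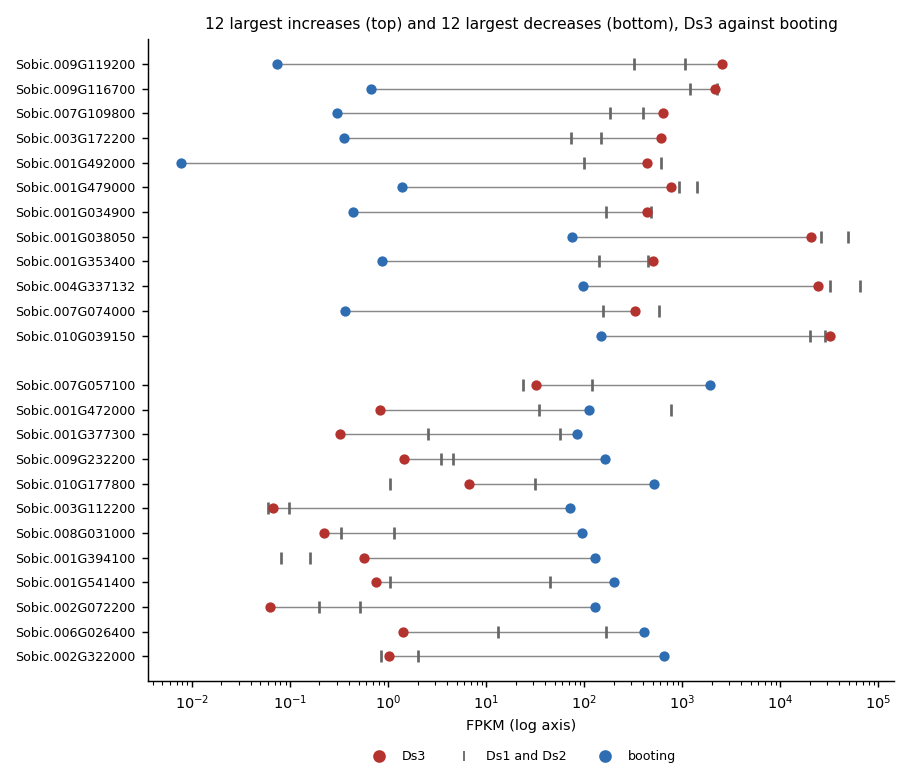
Pooled FPKM (log axis) of the 12 gene loci with the largest increase (upper block) and the 12 with the largest decrease (lower block) in Ds3 against booting, with Ds3 in red, Ds1 and Ds2 as grey ticks and booting in blue. Increases end between 334 and 32381 FPKM in Ds3, and decreases between 0.0632 and 32.0.

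Some loci were listed at 0 in 1 group, for which no ratio is given. Among gene loci with 10 FPKM or more in Ds3, 19 were listed at 0 in booting. Sobic.009G215700 read 498 FPKM in Ds3, 55.5 in Ds1 and 428 in Ds2, and was listed at 0 in booting, milky and maturity. Sobic.001G200700 read 129 FPKM and Sobic.001G515700 128 FPKM in Ds3, both likewise listed at 0 in those stages. In the other direction, 14 loci were listed at 0 in Ds3 with 10 FPKM or more in booting. Sobic.010G178000 was listed at 0 in Ds3 and read 206 FPKM in booting and 2.42 in Ds1, and in the developmental part it read 3004 FPKM in milky. Sobic.010G177800, close to it in the ID order, was among the 12 largest decreases, with 6.74 FPKM in Ds3 and 519 in booting. Sobic.004G257900 was listed at 0 in Ds3 and read 54.9 FPKM in booting.

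In the values as deposited, the largest losses in FPKM were mostly modest ratios of very abundant loci. Sobic.002G324200, the highest locus of booting, read 5023 FPKM in Ds3 and 8654 in booting, a log2 difference of -0.78. Sobic.001G154100 read 992 FPKM in Ds3 and 3126 in booting, and Sobic.004G006300, a name carried by more than 1 locus, read 912 and 2862. Only Sobic.007G057100, given above, and Sobic.001G107200 among these 8 loci were 4-fold or more lower, the second with 47.1 FPKM in Ds3 and 1242 in booting. Under quantile normalization Sobic.002G324200 had a log2 difference of -2.56 and Sobic.001G154100 -3.86, both past 4-fold. Sobic.006G135600, another of the 8, had -2.79 under that setting and -1.74 as deposited.

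The first digits of the gene IDs give the chromosome in sorghum nomenclature. Shares of higher loci by chromosome lay around the 7.31% of all gene loci, and their spread was not tested. Chromosome 3 had the highest share, 134 of 1523 expressed loci (8.80%), and chromosome 8 the lowest, 25 of 491 (5.09%). Lower loci ranged from 5.40% on chromosome 7 to 8.71% on chromosome 5, beside 6.25% of all gene loci. On chromosome 3 a short stretch of IDs, from Sobic.003G168350 to Sobic.003G173266, held 26 higher loci and 0 lower ones among 36 expressed loci. Outside this stretch the chromosome's share was 7.26%. The stretch was singled out after its values had been seen.

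Within it the higher loci formed 2 blocks with a middle of 10 expressed loci, none of them 4-fold higher. The 26 higher loci had log2 differences between 3.58 and 8.81, and the 10 others lay between -1.06 and 1.34. Sobic.003G172800 was the most abundant, with 2308 FPKM in Ds3 and 47.7 in booting. Sobic.003G171900 read 1793 FPKM in Ds3 and 9.97 in booting, and Sobic.003G173116 read 1253 and 6.63. Summed over the 56 loci of the stretch, FPKM was 10505 in Ds3, 8640 in Ds1, 11638 in Ds2 and 609 in booting. Sobic.003G169000, inside the first block but under 10 FPKM in both groups, was listed at 0 in Ds3 and read 117 FPKM in Ds1, 197 in Ds2 and 6.81 in booting.

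**Figure D5:**
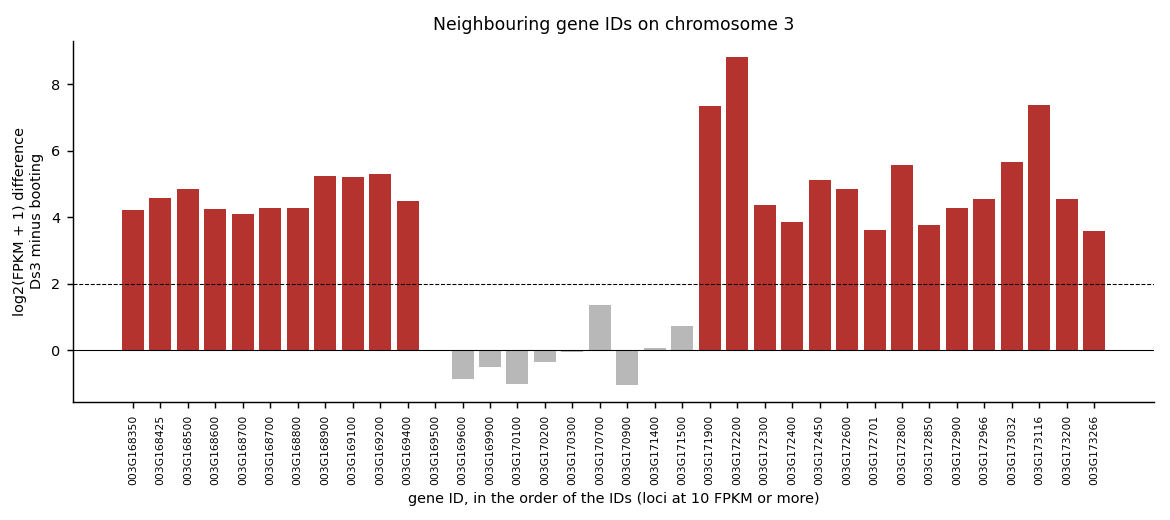
The log2(FPKM + 1) difference, Ds3 minus booting, of the 36 gene loci at 10 FPKM or more in a stretch of neighbouring IDs on chromosome 3, in ID order. Red bars mark the 26 loci at least 4-fold higher in Ds3 (dashed line), in 2 blocks around 10 loci (grey) that lie between -1.06 and 1.34.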

How the data were processed

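Total RNA was extracted with a modified trizol method and made into stranded total RNA libraries, per the labels' protocols. The submitters' processing notes list Bowtie2 2.2.9, Cuffdiff, HISAT2 2.0.5 and cutadapt 1.8.1 without saying what each did. For the genome build, the labels and headers name none. The authors deposited 1 FPKM value per group of 2 libraries. The table has 2 parts, per the file headers, each scaled on its own, so differences were taken within the water-limiting part. FPKM hides read depth, so no counting interval is given.

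From these values log2(FPKM + 1) differences, Ds3 minus booting, were computed with Python 3.11.15 and pandas 2.3.3. With 1 value per group no test was possible. Named loci are the 12 with the largest difference each way, the 3 each way listed at 0 in 1 group, the 8 with the largest FPKM gain and loss, and the listed genes. The members and lists were chosen with earlier results of these data known. The RefSeq gene table matched 0 of 32976 gene IDs, so lists by product name could not be filled. The values of 1 lignin gene are not reported here, but it stays in its list's counts and medians. 819 gene loci share 404 names with another locus. Alternatives were other pseudocounts, filters, ratios and scalings.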

Additional observations from a re-analysis of the deposited data

Results flagged for a closer look

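Loci that name no gene lie outside the comparison of gene loci, and their signal stood above that of booting. They held 6.71% of all FPKM in Ds3 and 1.75% in booting. Of 264 such loci at 10 FPKM or more, 89 (33.7%) were 4-fold or more higher in Ds3 and 14 (5.30%) lower, beside 7.31% and 6.25% of gene loci, while their median log2 difference was -0.31. The largest, MSTRG.2860 in the authors' numbering, read 9838 FPKM in Ds3, 27801 in Ds1, 17337 in Ds2 and 76.0 in booting. MSTRG.22466, MSTRG.22467 and MSTRG.22468, which follow each other in that numbering, read 6047, 2480 and 4918 FPKM in Ds3, against 57.4, 29.1 and 31.4 in booting. What these loci are was not tested.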

How the results depend on the processing

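With a pseudocount of 5 the counts were 478 higher and 295 lower loci, and the median log2 differences were -2.29 for lignin, -2.23 for cellulose and glucan synthases, -1.80 for the dhurrin locus and 0.73 for sucrose synthases. With a pseudocount of 0.1 the cellulose and glucan synthases had -5.48. Requiring 50 FPKM left 355 higher and 180 lower loci. A ratio of 2 gave 1787 and 2044, and a ratio of 8 gave 428 and 263. These shifts follow from how each setting is built. Without a filter 1020 loci were higher and 962 lower. Median-of-ratios scaling gave 803 and 599, quantile normalization 766 and 645, equal totals without the most abundant loci 706 and 707, and loci with a name of their own 699 and 628. Leaving out the chromosome 3 stretch, chosen after seeing the data, gave 725 and 642. Of 79 single-locus values, 30 moved by more than the SD between the 2 booting values with a pseudocount of 0.1, 37 with a pseudocount of 5 and 15 under quantile normalization. Filters leave single values as they are. 1 more value, not in these counts, changed sign: GST1 (Sobic.001G012500) went from 0.48 to -0.83 under quantile normalization. This too was more than the SD between the 2 booting values, and the cause was not tested. No paired analysis was possible because each group has 1 pooled value, which also kept single libraries from being left out. Read depth is unknown, so how far low values can be trusted cannot be given.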

Other observations

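Genes whose IDs carry the letter K in place of a chromosome number were looked at after their values had been seen. Of 21 such loci at 10 FPKM or more, 12 (57.1%) were 4-fold or more higher in Ds3 and 1 lower, beside 7.31% and 6.25% of all gene loci. Most of the 12 lie close together in the ID order, from Sobic.K031300 to Sobic.K032600. The name Sobic.K031900 is counted more than once among the 12, and Sobic.K043600 also shares its name with another locus. Sobic.K032200 read 887 FPKM in Ds3, 1076 in Ds1, 907 in Ds2 and 19.9 in booting. Sobic.K032300 read 565 FPKM in Ds3, 391 in Ds1, 375 in Ds2 and 15.8 in booting. The 1 lower locus, Sobic.K020400, read 1.12 FPKM in Ds3 and 17.3 in booting.

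Runs of at least 3 neighbouring IDs past 4-fold in the same direction numbered 6 over all chromosomes. Beside the 3 on chromosome 3 and the dhurrin genes, Sobic.004G303433 to Sobic.004G303500 were higher, with 93.4 to 2193 FPKM in Ds3 and 1.13 to 112 in booting. Sobic.006G193900 to Sobic.006G194100 were lower, with 4.17 to 7.03 FPKM in Ds3 and 36.0 to 122 in booting. No test was made of how often such runs occur by chance.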
